A study of Homo sapiens with 40 samples.

Results

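The 10 genes described here encode enzymes that make serine, feed one-carbon units from serine into mitochondrial folate, and make proline and asparagine. They were taken by name from the 58395 genes of the count table. The rule uses no measured value, but the list was drawn up with earlier results of these data known, so the counts below are a description and no independent support. PHGDH, PSAT1 and PSPH form the serine pathway, SHMT2, MTHFD2, MTHFD1L and ALDH1L2 the mitochondrial folate pathway, PYCR1 and ALDH18A1 the proline pathway, and ASNS makes asparagine. All 10 passed the filter on low counts, as did 28922 genes in all.

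The transcriptome of HEK293A cells, a line derived from human embryonic kidney, was read by polyA RNA sequencing in wild type (WT) and PARP1-knockout (PARP1-KO) cells. PARP1 is the main enzyme that builds poly(ADP-ribose) at DNA breaks, and the KO line is 1 clone edited with CRISPR/Cas9. Each genotype was left untreated or kept for 5 to 5.5 h with the vehicle DMSO alone at 0.1% or with drug. The drug groups received topotecan (Tpc), OL9-119 at 5 µM, or Tpc and OL9-119 together. Tpc alone and OL9-119 alone were given in 0.1% DMSO, and for the combination the sources name DMSO without its percentage. Tpc is a poison of DNA topoisomerase 1 and OL9-119 an inhibitor of TDP1, the enzyme that removes trapped topoisomerase 1 from DNA. Tpc was given at 100 nM to WT cells and at 50 nM to PARP1-KO cells, so that any comparison of Tpc responses between genotypes also compares doses. There were 4 libraries in each of the 10 groups, 40 in all, and the sources name them as biological replicates in one place and technical in another, so that p-values may measure technical spread alone.

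Library totals ran from 3455043 to 20379777 counts. PARP1 itself was at 737 to 887 CPM (counts scaled to a common library size), median 805, in the 20 WT libraries and at 30.4 to 46.6 CPM, median 39.7, in the 20 PARP1-KO libraries, so that each library matched the genotype in its title. In one label field the same cells are called a knockdown. The epithelial keratins KRT8 and KRT18, VIM, CDH2 and the neurofilament gene NEFL, all known in HEK293 lines, were detected in every library. PAX2 and NEFM, listed with them, had lower medians. PAX2 was at 0.108 to 12.1 CPM, median 2.66, in WT and 0.0979 to 2.32 CPM, median 1.15, in KO cells. NEFM was at 3.38 to 49.6 CPM, median 7.78, in WT and 4.73 to 9.37 CPM, median 6.60, in KO cells. The leukocyte marker PTPRC was at 0 in all 20 WT and 11 of the 20 KO libraries. Of the markers of other cell types, the collagen gene COL1A1 was detected in every library, at 14.7 to 43.0 CPM in WT and 9.10 to 17.7 CPM in KO cells. The endothelial PECAM1 reached 2.74 CPM in WT and 1.95 CPM in KO cells and was at 0 in 4 WT libraries, and the hepatocyte gene ALB reached 0.530 and 1.20 CPM and was at 0 in 13 WT and 4 KO libraries. The part of these markers in the results was not tested. A pair of WT libraries stood apart from their groups. Replicate 3 of the DMSO group had a median correlation of 0.862 with its group and replicate 3 of the untreated group 0.898, against 0.922 to 0.992 for the other 38 libraries.

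Serine is built from a glycolytic intermediate in 3 steps, in which PHGDH oxidises 3-phosphoglycerate, PSAT1 adds the amino group and PSPH removes the phosphate. In mitochondria SHMT2 moves a carbon from serine to tetrahydrofolate, MTHFD2 oxidises it, MTHFD1L releases it as formate and ALDH1L2 can burn it to carbon dioxide with gain of NADPH. ALDH18A1 and PYCR1 make proline from glutamate, and ASNS makes asparagine from aspartate. Many of these genes are known targets of ATF4, the transcription factor of the integrated stress response, which binds composite elements together with C/EBP family partners.

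Promoter sequences are shown because such elements are known in several of these genes. The motif TGATGNAA was searched on both strands of the windows from 250 bases before to 50 bases after each RefSeq start site (GRCh38.p14). Of the members, 6 had windows in the table, namely PHGDH, PSAT1, MTHFD2, MTHFD1L, ALDH18A1 and ASNS, and PSPH, SHMT2, ALDH1L2 and PYCR1 had none. The motif was found in ASNS and MTHFD1L, in 4 of the 10 windows of the members, beside 3.62% of all 35116 windows. The MTHFD1L windows with a match overlap and hold the same site, so they are not separate matches. The motif is in capitals in the first pair of sequences, which read 5′ to 3′ on the gene's strand and lie on the minus strand of chromosome 7 and the plus strand of chromosome 6. The last sequence is the 60 bases before the PSAT1 start on the plus strand of chromosome 9, given because PSAT1 had the lowest adjusted p of the members with OL9-119 in WT cells and its window held no match.
ASNS, chr7:97872458-97872487: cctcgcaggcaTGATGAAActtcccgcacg
MTHFD1L, chr6:150866346-150866375: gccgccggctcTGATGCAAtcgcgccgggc
PSAT1, chr9:78297065-78297124: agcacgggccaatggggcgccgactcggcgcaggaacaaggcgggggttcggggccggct
In ASNS the first base of the motif lay 68 bases before the RefSeq start site. MTHFD1L has several start sites, and the same motif lay 129 or 90 bases before a pair of them and 24 bases after another. A match is a string of letters and no binding was measured.

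Per kilobase of the canonical transcript, the levels in DMSO-treated WT cells spanned a wide range. SHMT2 was highest at 111 CPM per kb, followed by PHGDH at 94.5, ALDH18A1 at 60.2, PSAT1 at 43.8 and MTHFD2 at 38.7 CPM per kb. PYCR1 at 23.2 and MTHFD1L at 22.3 CPM per kb came next, then PSPH at 8.02 CPM per kb. ALDH1L2 at 1.03 and ASNS at 0.657 CPM per kb were lowest. ASNS rested on 1 to 90 counts per library. Its exons share 2415 bases on the same strand with the annotated lncRNA ENSG00000284707, and the counting used by the authors leaves out reads that touch more than 1 gene, so the ASNS level is uncertain. PYCR1 shares 408 exon bases on the same strand with MYADML2. MTHFD2 shares 1619, SHMT2 385 and ALDH1L2 276 exon bases with genes on the opposite strand, and the sources do not state which strand column was deposited.

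Across treatments 8 of the 10 members had a wider range of group means in WT than in PARP1-KO cells. The same count was not made over all genes, so it cannot be read as a trait of the members. The WT libraries were less alike within their groups, with a lowest median correlation of 0.862 against 0.966 in KO cells. The Tpc dose was also higher in WT cells. The part of either in the wider range was not tested. The ratio of the highest to the lowest group mean CPM was 1.16 to 4.98 over the members in WT and 1.08 to 2.98 in PARP1-KO cells. The highest of these belonged to ASNS in both genotypes, with its few reads. Without it, ALDH1L2 led in WT with a ratio of 4.18, followed by PSPH at 2.34, MTHFD2 at 2.26 and PSAT1 at 2.18, where the same ratios in PARP1-KO cells were 1.32, 1.10, 1.10 and 1.12. MTHFD1L and PYCR1 were the exceptions, with 1.30 and 1.16 in WT against 1.38 and 1.18 in KO cells.

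**Figure D1:**
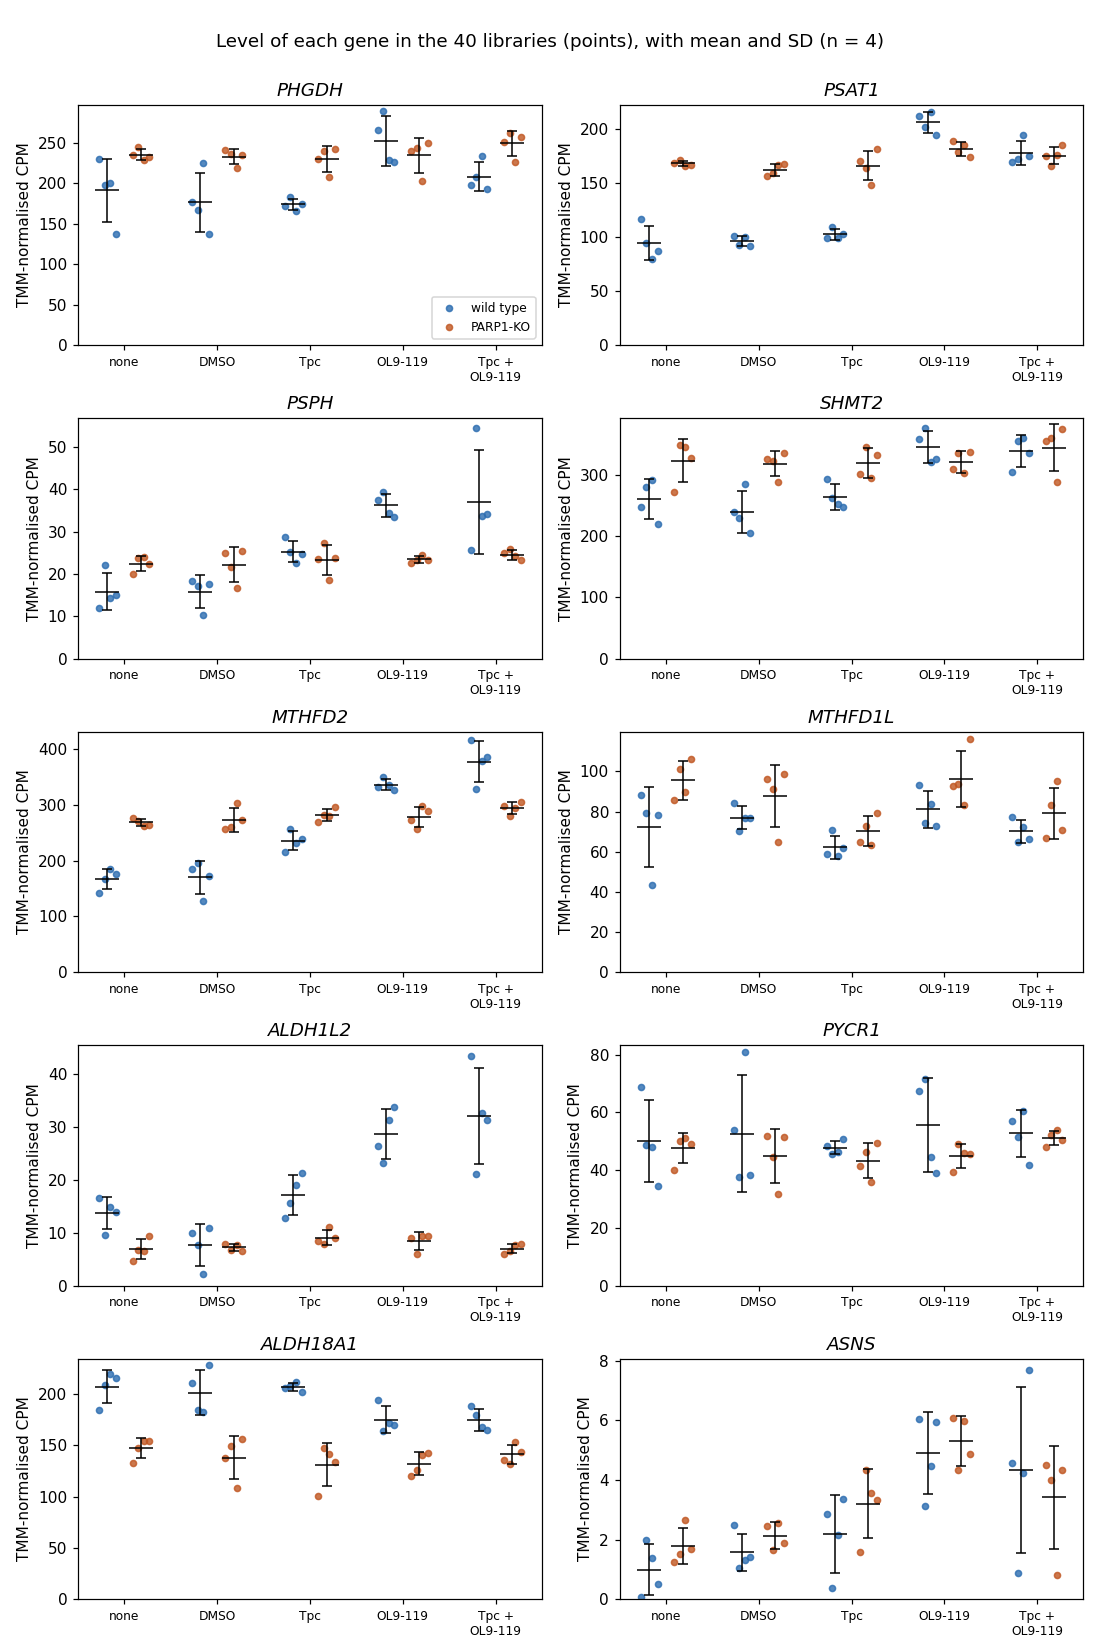
Each panel plots 1 gene's TMM-normalised CPM (y axis, from 0) in the 5 treatments (x axis) for WT (blue) and PARP1-KO (orange), with a point per library and the mean ± SD of 4 libraries in black. PSAT1, PSPH, MTHFD2 and ALDH1L2 step up in WT cells with OL9-119, where PSAT1 goes from 92.2 to 101.3 CPM with DMSO to 195 to 216 CPM, and lie nearly flat in PARP1-KO cells.

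The action of OL9-119 was asked of WT cells first, against DMSO. Here 6 of the 10 genes rose, namely PHGDH, PSAT1, PSPH, SHMT2, MTHFD2 and ALDH1L2, which is the whole serine pathway and 3 of the 4 mitochondrial folate genes. None fell. Of all genes tested, 0.488% rose and 1.15% were called in either direction at an adjusted p below 0.01 (edgeR quasi-likelihood test with Benjamini-Hochberg adjustment over all genes, used for every adjusted p below). The median log2 fold change of the 10 members was 0.76, against 0.03 over all genes. CPM is a share of a library's counts, so that a change in every cell and a change in some of the cells cannot be told apart.

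In the serine pathway PSAT1, the aminotransferase, showed the clearest step. Its levels with DMSO were 101.3, 92.6, 100.2 and 92.2 CPM and with OL9-119 212, 202, 216 and 195 CPM. Every OL9-119 library lay above every DMSO library, at 2.14-fold the level (log2 1.09 ± 0.10 SE, adjusted p = 1.06e-11). PSPH, the phosphatase that ends the pathway, was at 18.4, 17.2, 10.2 and 17.5 CPM with DMSO and at 37.5, 39.3, 34.4 and 33.5 CPM with OL9-119. The groups did not overlap and differed by 1.19 ± 0.20 on the log2 scale (adjusted p = 5.47e-05). The low DMSO value belonged to replicate 3, which stood apart as a library, and without it the log2 difference was 1.03 (adjusted p = 0.000908). With only the libraries compared the PSPH call was lost (log2 1.19, adjusted p = 0.0220).

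PHGDH, which opens the pathway, moved less. Its DMSO libraries were at 177, 167, 224 and 137 CPM and its OL9-119 libraries at 265, 289, 228 and 225 CPM, so that the groups came close without overlap. On the log2 scale this came to 0.51 ± 0.12 (adjusted p = 0.0064). This call was lost in more alternatives than that of any other of the 6. Among them were RLE normalisation (adjusted p = 0.0131) and fits to only the libraries compared (adjusted p = 0.255). Untreated cells in place of DMSO gave 0.40 (adjusted p = 0.0506), offsets for length and GC 0.31 (adjusted p = 0.238), and leaving out DMSO replicate 1, 2 or 4 or OL9-119 replicate 1 or 2 gave 0.42 to 0.52 with adjusted p from 0.0186 to 0.0403, while without DMSO replicate 3 the value was 0.65.

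In the mitochondrial folate pathway MTHFD2, the dehydrogenase, was at 185, 196, 127.7 and 173 CPM with DMSO and at 332, 351, 337 and 327 CPM with OL9-119. This was a rise of 1.97-fold (log2 0.98 ± 0.11, adjusted p = 6.83e-10). SHMT2, the hydroxymethyltransferase, went from 239, 229, 286 and 205 CPM to 360, 377, 321 and 327 CPM, a smaller rise of 1.44-fold (log2 0.53 ± 0.11, adjusted p = 0.00145). Both genes had separate groups, and the SHMT2 call was lost against untreated cells (log2 0.41, adjusted p = 0.0196), with only the libraries compared (log2 0.52, adjusted p = 0.135) and without OL9-119 replicate 1 (log2 0.49, adjusted p = 0.0122).

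ALDH1L2, the formyltetrahydrofolate dehydrogenase, had the largest log2 change among the members that were called. It was at 10.02, 7.60, 2.16 and 10.96 CPM with DMSO and at 26.4, 23.2, 31.3 and 33.8 CPM with OL9-119 (log2 1.90 ± 0.28, adjusted p = 4.59e-06). The lowest value was again DMSO replicate 3, without which the log2 change was 1.59 (adjusted p = 3.58e-05). With only the libraries compared the log2 change was 1.90 and was not called (adjusted p = 0.0288). Against untreated cells, where ALDH1L2 was at 16.7, 9.54, 14.8 and 13.99 CPM, it was 1.06 (adjusted p = 0.0158). The size of the ALDH1L2 change thus moved by over 1.5 times with the control chosen.

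The remaining 4 genes did not pass the test with OL9-119 in WT cells. MTHFD1L, the formate-releasing synthetase, had a log2 value of 0.08 ± 0.15 and PYCR1, the last enzyme of proline synthesis, one of 0.08 ± 0.19. ALDH18A1, the first enzyme of that branch, had a log2 value of -0.20 ± 0.11 (adjusted p = 0.356), the only negative one of the 10. ASNS was at 2.49, 1.05, 1.32 and 1.41 CPM with DMSO and at 6.06, 3.14, 4.45 and 5.94 CPM with OL9-119. These groups did not overlap, yet the log2 value of 1.62 ± 0.63 missed the threshold (adjusted p = 0.168), and few reads lay behind it. In all, 7 members had OL9-119 libraries wholly above the DMSO libraries, as did 3.12% of all genes.

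The DMSO libraries serve every drug comparison within a genotype, so the comparisons below are not independent of each other. Tpc alone moved few of the members in WT cells. MTHFD2 was the 1 member called, where 0.985% of all genes were called in either direction. Its Tpc libraries were at 215, 258, 232 and 239 CPM, above every DMSO library, and the log2 difference was 0.47 ± 0.11 (adjusted p = 0.0047). Without DMSO replicate 3 this was 0.35 and no longer passed (adjusted p = 0.0597), and without Tpc replicate 2, 3 or 4 it missed the threshold as well (adjusted p = 0.0133 to 0.0295). The call was also lost with offsets for length and GC (log2 0.37, adjusted p = 0.0424), without a filter on low counts (adjusted p = 0.0136) and with only the libraries compared (adjusted p = 0.277). ALDH1L2 had the largest log2 value, 1.15 ± 0.28 with libraries at 12.8, 15.6, 19.03 and 21.3 CPM, which missed the threshold (adjusted p = 0.0127), and PSPH had 0.67 ± 0.20 (adjusted p = 0.0582). PSAT1, at 0.09 ± 0.10, and PHGDH, at -0.02 ± 0.12, did not pass.

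Tpc and OL9-119 together raised 5 of the 10 members in WT cells, where 1.84% of all genes were higher and 3.38% called in either direction. These were PSAT1, PSPH, SHMT2, MTHFD2 and ALDH1L2. MTHFD2 reached its highest group mean here, with libraries at 417, 329, 379 and 386 CPM (log2 1.15 ± 0.11 against DMSO, adjusted p = 1.85e-12). ALDH1L2 did so as well, at 43.4, 21.0, 32.6 and 31.3 CPM (log2 2.06 ± 0.28, adjusted p = 3.57e-07), and against untreated cells its log2 value was 1.22 (adjusted p = 0.00172). PSAT1 was at 170, 173, 195 and 175 CPM, above all DMSO libraries (log2 0.88 ± 0.10, adjusted p = 5.67e-09). PSPH spread widely, at 25.6, 54.5, 33.7 and 34.05 CPM (log2 1.22 ± 0.20, adjusted p = 1.58e-05). This PSPH call was lost with only the libraries compared (adjusted p = 0.0259). SHMT2 changed by 0.50 ± 0.11 (adjusted p = 0.00134), and PHGDH, at 0.24 ± 0.12, was not called (adjusted p = 0.224). The SHMT2 call was lost against untreated cells (log2 0.38, adjusted p = 0.0165), with only the libraries compared (adjusted p = 0.0838) and without DMSO replicate 4 (adjusted p = 0.0105).

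Set against Tpc alone, the combination was higher in PSAT1 (log2 0.80 ± 0.10, adjusted p = 1.07e-06) and MTHFD2 (log2 0.68 ± 0.10, adjusted p = 4.27e-05), where 0.118% of all genes were higher and 0.18% called in either direction. Set against OL9-119 alone, it gave 0 called members, where 0.408% of all genes were called. At an unadjusted p below 0.05 there were 2 members, PHGDH and PSAT1, with log2 values of -0.28 and -0.21, beside 3524 of all 28922 genes. DESeq2 called 0 members as well. The 95% interval of that difference was -0.04 to 0.37 for MTHFD2 and -0.36 to 0.69 for ALDH1L2 on the log2 scale.

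In PARP1-KO cells no member was called with any of the 3 treatments against DMSO. Background calls there were 0.0% with Tpc, 0.00346% with OL9-119 and 0.0% with the combination, from 0, 1 and 0 genes. At an unadjusted p below 0.05 there were 1, 1 and 0 members and 1101, 671 and 834 genes. DESeq2 called 0 members in each, and 0, 0 and 1 genes. The combination against Tpc alone or OL9-119 alone gave 0 members too, also at an unadjusted p below 0.05 and by DESeq2, where 0.0% of all genes were called. With OL9-119, PSAT1 was at 157, 159, 167 and 168 CPM in the DMSO libraries and at 189, 179, 186 and 175 CPM in the treated ones. These groups did not overlap, but the log2 value was 0.16 ± 0.10 with a 95% interval of -0.04 to 0.36. MTHFD2 had a log2 value of 0.03 (interval -0.18 to 0.23) and ALDH1L2 one of 0.22 (interval -0.33 to 0.77). ASNS had the largest log2 value of the 10 in the KO cells with OL9-119, 1.32 ± 0.62. It was at 2.46, 1.63, 2.54 and 1.88 CPM with DMSO and at 6.07, 4.33, 5.97 and 4.87 CPM with OL9-119, without overlap and without passing the test (unadjusted p = 0.0369). In all, 2 members, PSAT1 and ASNS, had OL9-119 libraries wholly above the DMSO libraries of the KO cells, as did 1.07% of all genes.

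**Figure D2:**
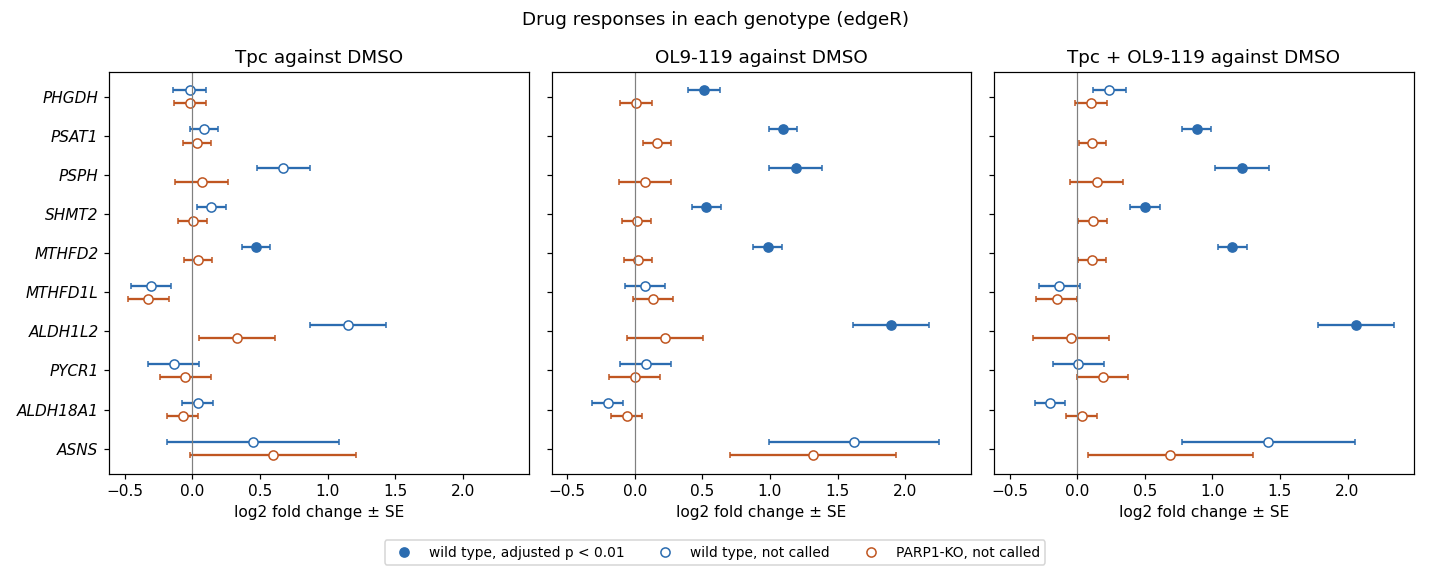
Points are log2 fold changes against DMSO (x axis) with their SE as bars for each gene (y axis), in WT (blue) and PARP1-KO cells (orange), with a panel for each treatment. Filled points passed an adjusted p of 0.01, which 1, 6 and 5 genes did in WT cells and 0 in PARP1-KO cells; the 2 genotypes received different Tpc doses.

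Whether the responses differed between the genotypes was tested by the interaction term. With OL9-119 at the same dose, the response in PARP1-KO cells was lower than in WT for PSAT1 by a log2 difference of -0.93 ± 0.15 (adjusted p = 5.64e-05) and for MTHFD2 by -0.96 ± 0.15 (adjusted p = 5.32e-05). Such a difference was called in either direction for 0.1% of all genes. ALDH1L2, at -1.67 ± 0.40 (adjusted p = 0.0548), and PSPH, at -1.11 ± 0.28 (adjusted p = 0.0849), missed the threshold, as did PHGDH and SHMT2 with log2 differences of -0.50 and -0.51. With the combination, the term was called for PSAT1 (-0.77), MTHFD2 (-1.04) and ALDH1L2 (-2.11 ± 0.40, adjusted p = 0.000844), where 0.432% of all genes were called. The ALDH1L2 term was -1.21 against untreated cells and no longer passed (adjusted p = 0.187). With only the libraries compared the combination terms of PSAT1 (adjusted p = 0.0126) and ALDH1L2 (adjusted p = 0.0222) were not called. With Tpc alone 0 members were called, and 0 by DESeq2, where 0.173% of all genes were called by edgeR. At an unadjusted p below 0.05 there were 3 members, beside 2510 of all 28922 genes.

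The genotypes themselves were compared within each treatment. With DMSO, PSAT1, SHMT2 and MTHFD2 were higher and ALDH18A1 lower in PARP1-KO cells. That is 4 of 10 members, where 12.4% of all genes were called, 6.67% higher and 5.75% lower. The stricter filter filterByExpr kept 18230 genes, and 3865 of these and 4 members were called. The PSAT1 libraries of the KO cells given above lay over all WT libraries with DMSO (log2 0.75 ± 0.10, adjusted p = 8.4e-08). MTHFD2 was at 257, 260, 304 and 273 CPM in the KO cells, again over all WT libraries (log2 0.68 ± 0.11, adjusted p = 9.65e-07). SHMT2 was at 327, 322, 289 and 337 CPM (log2 0.41 ± 0.11, adjusted p = 0.00363), with its lowest library just over the highest WT library of 286 CPM. Leaving out WT replicate 1, 2 or 4 or KO replicate 1, 2 or 4 ended the SHMT2 call (log2 0.34 to 0.41, adjusted p = 0.0111 to 0.0286). It was also lost without a filter on low counts (adjusted p = 0.0125) and with only the libraries compared (adjusted p = 0.0622). After adjustment for length and GC the log2 differences of PSAT1 and MTHFD2 were 0.48 and 0.38, both still called, and the median over all genes moved from 0.19 to 0.03. With filterByExpr and no such adjustment that median was 0.04.

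ALDH18A1, the synthase that starts proline from glutamate, was lower in PARP1-KO cells. With DMSO it was at 211, 184, 183 and 228 CPM in WT and at 138, 149, 109 and 156 CPM in KO cells, with no overlap (log2 -0.55 ± 0.11, adjusted p = 0.000199). With only the libraries compared this call was lost (adjusted p = 0.0154). The log2 difference was -0.49 in untreated cells, -0.66 with Tpc and -0.41 with OL9-119, all called, and -0.31 with the combination, which was not (adjusted p = 0.0597). The call with OL9-119 was lost when any library but WT replicate 2 was left out (adjusted p = 0.0112 to 0.0547). It was also lost under RLE normalisation, without a filter on low counts and with the library name prefix as covariate (adjusted p = 0.0101 to 0.0155). The other proline gene, PYCR1, did not pass in any treatment, with log2 differences from -0.31 to -0.05.

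Untreated cells gave 4 calls, where 11.7% of all genes were called. PSAT1 was higher in the KO cells, at 169, 172, 166 and 167 CPM against 116.7, 94.9, 79.5 and 87.4 CPM in WT (log2 0.83 ± 0.10, adjusted p = 7.13e-09). MTHFD2 was higher as well (log2 0.68 ± 0.11, adjusted p = 1.09e-06), by 0.39 with the adjustment for length and GC. Besides ALDH18A1, ALDH1L2 was lower, at 4.70, 6.73, 6.60 and 9.37 CPM against 16.7, 9.54, 14.8 and 13.99 CPM (log2 -0.99 ± 0.28, adjusted p = 0.00699). That call was lost without WT replicate 1, 3 or 4 or KO replicate 1, 2 or 3 (log2 -0.98 to -0.87, adjusted p = 0.0129 to 0.0373). It was also lost with the library name prefix as covariate (log2 -0.92, adjusted p = 0.0173) and with only the libraries compared (adjusted p = 0.0301). Untreated KO libraries lacked a prefix that 2 untreated WT libraries bore, and in the shared prefixes the ALDH1L2 difference was -1.53 and -0.27. With DMSO the ALDH1L2 difference was -0.09 ± 0.28.

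The genotypes were also compared under each drug. With Tpc, PSAT1 was higher (log2 0.70 ± 0.10, adjusted p = 8.16e-07) and ALDH18A1 lower, where 8.52% of all genes were called. With OL9-119 no member was higher in PARP1-KO cells, and ALDH1L2 and ALDH18A1 were lower, where 4.83% of all genes were lower and 9.77% called in either direction. There, ALDH1L2 was at 9.05, 5.88, 9.42 and 9.45 CPM in the KO cells against 23.2 to 33.8 CPM in WT (log2 -1.77 ± 0.28, adjusted p = 2.32e-06). With the combination ALDH1L2 was the 1 member called, at 5.90, 6.62, 7.60 and 7.79 CPM in KO cells (log2 -2.20 ± 0.28, adjusted p = 3.68e-08), where 3.71% of all genes were lower and 7.27% called in either direction. PSAT1, at 175 to 189 CPM in KO cells with OL9-119 and 195 to 216 CPM in WT, had a log2 difference of -0.18 ± 0.10 that was not called (adjusted p = 0.252).

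**Figure D3:**
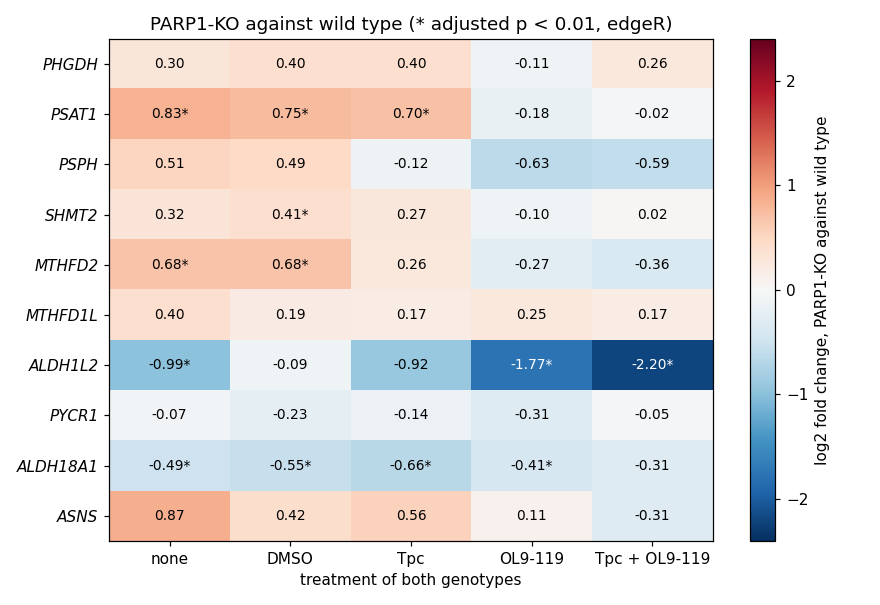
Colours and figures give the log2 fold change of PARP1-KO against WT cells for each gene (rows) in each treatment (columns), with red for higher in KO, blue for lower, and an asterisk for an adjusted p below 0.01. PSAT1 goes from 0.83 in untreated cells to -0.02 with the combination, ALDH1L2 reaches -2.20, and ALDH18A1 is below 0 in all 5 columns; the Tpc dose differed between the genotypes.

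No member was called for DMSO against untreated cells in either genotype, where 0.0% of all genes were called. At an unadjusted p below 0.05 there were 1 member in WT and 0 in KO cells, and 3116 and 538 genes, while DESeq2 called 0 members and 9 and 0 genes. The 1 member was ALDH1L2 in WT cells, with a log2 value of -0.84 ± 0.28 (adjusted p = 0.296).

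Ranked over the 10 groups, the members fell into several orders. PSAT1 was highest in WT cells with OL9-119 (206 ± 9.44 CPM, SD, n = 4) and lowest in untreated WT cells (94.6 ± 16.01 CPM), with all 5 KO groups between 162.5 and 182 CPM. MTHFD2 had its 5 KO groups between 269 and 295 CPM, below the WT groups with OL9-119 (337 ± 10.5 CPM) and with the combination (378 ± 36.4 CPM) and above the other 3 WT groups. For PSPH and ALDH1L2 the combination and OL9-119 in WT cells were the top pair, at 37.0 ± 12.3 and 36.2 ± 2.72 CPM for PSPH and at 32.1 ± 9.15 and 28.7 ± 4.76 CPM for ALDH1L2, and did not differ beyond their spread. ALDH18A1 had all 5 WT groups above all 5 KO groups, from 208 ± 15.8 CPM in untreated WT cells to 131 ± 20.9 CPM in KO cells with Tpc.

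Over the 20 WT libraries the log2 CPM of the 45 pairs of members correlated with r from -0.80, for PSAT1 and ALDH18A1, to 0.87, for PSPH and MTHFD2, with a median of 0.30. Over the 20 KO libraries the range was -0.45 to 0.82 and the median 0.18. These values describe libraries that share treatments and depth, and in WT cells they include the drug responses themselves. The genes whose log2 CPM followed the members' mean standardised profile most closely over all 40 libraries, out of 12152 ranked, were CARS1 (r = 0.88), SESN2 (r = 0.86), MARS1 (r = 0.83), AARS1 (r = 0.81) and YARS1 (r = 0.81). CARS1, MARS1, AARS1 and YARS1 encode cytosolic aminoacyl-tRNA synthetases and SESN2 a leucine sensor.

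Related enzymes of the members were read beside them. With OL9-119 in WT cells 0 of 6 isoenzyme genes were called, that is SHMT1, MTHFD1, MTHFD2L, ALDH1L1, PYCR3 and ASNSD1, an ASNS homologue. Of all genes 1.15% were called in either direction, so 0 of 6 is near that share. At an unadjusted p below 0.05 there was PYCR3 with a log2 value of -0.54, beside 4930 of all 28922 genes. ALDH1L1, at -0.55 ± 1.11, and MTHFD2L, at -0.05 ± 0.29, were imprecise. SHMT1, the cytosolic counterpart of SHMT2, was at 50.1, 31.5, 47.6 and 48.1 CPM with DMSO and at 43.95, 39.4, 45.1 and 40.98 CPM with OL9-119 (log2 -0.06 ± 0.16). MTHFD1, the cytosolic trifunctional enzyme, had a log2 value of 0.04 ± 0.09 with OL9-119. Between the genotypes with DMSO, MTHFD1 was higher in PARP1-KO cells, at 363, 381, 354 and 371 CPM against 239, 243, 180.3 and 255 CPM (log2 0.68 ± 0.09, adjusted p = 1.04e-07), as was ASNSD1 (log2 0.55 ± 0.12, adjusted p = 0.000395). PYCR3 had a log2 value of -0.85 ± 0.26 there (adjusted p = 0.0139). Whether a member and its isoenzyme differed in response was not tested.

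Of 45 further genes of serine, folate, proline and aspartate metabolism, 44 were tested. With OL9-119 in WT cells 1 was higher, where 0.488% of all genes were, and 0 lower, and that was CTH, cystathionine gamma-lyase, which makes cysteine. CTH was at 6.61, 2.53, 8.15 and 5.95 CPM with DMSO and at 19.05, 29.5, 24.1 and 25.1 CPM with OL9-119 (log2 2.07 ± 0.28, adjusted p = 4.78e-07). With the combination 3 were higher, where 1.84% of all genes were, and 0 lower, namely CTH (log2 2.10), MTRR (log2 0.55), which reactivates methionine synthase, and ASNSD1 (log2 0.54). Tpc gave 0 calls in WT cells, where 0.985% of all genes were called. At an unadjusted p below 0.05 there were 10 of the 44, beside 4672 of all 28922 genes. The KO cells gave 0 calls with Tpc, OL9-119 and the combination. There, 2, 1 and 1 were at an unadjusted p below 0.05, beside 1101, 671 and 834 of all genes. The median log2 value of the 44 genes with OL9-119 in WT cells was 0.01, beside 0.76 for the 10 members.

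Between the genotypes with DMSO, 8 of the 44 further genes were higher and 4 lower in PARP1-KO cells, where 6.67% of all genes were higher and 5.75% lower. Among those with a mean of at least 50 counts, CTH (log2 1.64 ± 0.28), ARG2 (log2 1.54 ± 0.29), the mitochondrial arginase, and SLC25A32 (log2 0.70 ± 0.18), a mitochondrial folate carrier, led the higher ones. GGH (log2 -1.03 ± 0.14) and FPGS (log2 -0.69 ± 0.20), which remove and add the glutamate tail of folates, and GOT1 (log2 -0.54 ± 0.15), the cytosolic aspartate aminotransferase, led the lower ones. The median of the 44 genes was -0.01, beside 0.19 over all genes. With filterByExpr the median over all genes was 0.04 and 3865 of 18230 genes were called, and the 44 genes were not counted there.

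The regulators of the stress response were read beside the members. With OL9-119 in WT cells CEBPB rose from 22.3, 10.8, 17.7 and 27.4 CPM to 83.3, 86.7, 87.9 and 91.0 CPM (log2 2.16 ± 0.23, adjusted p = 2.88e-10). DDIT3 (log2 1.87), TRIB3 (log2 1.58) and ATF3 (log2 1.18) rose too, where 0.488% of all genes did. The ATF4 transcript had a log2 value of 0.46 ± 0.14 that missed the threshold (adjusted p = 0.0483). With Tpc, ATF3 (log2 1.98) and CEBPB (log2 1.01) rose, where 0.629% of all genes did. DDIT3, TRIB3 and ATF4 had log2 values of 0.13, 0.04 and 0.10. Between the genotypes with DMSO all 5 were higher in PARP1-KO cells, where 6.67% of all genes were. The log2 differences were 0.74 for ATF4, 1.72 for CEBPB, 1.71 for DDIT3, 1.90 for ATF3 and 1.27 for TRIB3. With OL9-119 in the KO cells 0 of the 5 were called, where 0.00346% of all genes were. The largest log2 value was that of DDIT3, 0.35 ± 0.18 (unadjusted p = 0.0490).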

How the data were processed

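The deposited table held raw counts per Ensembl gene in 40 libraries of HEK293A cells. Per the labels, polyA RNA was made into directional MGI libraries, and the submitters' processing notes name FastQC 0.11.9, STAR 2.7.8, Picard 2.26.6 and the hg38 build. The authors produced the counts with STAR, and the sources used here do not state the strand setting. Symbols were matched through GENCODE 44 (57754 of 58395 genes). Genes with at least 10 counts in sum were kept (28922). All 40 libraries were fitted together with 1 coefficient per group in edgeR 4.0.16 (R 4.3.3, TMM normalisation, quasi-likelihood F-test), and p-values were adjusted by Benjamini-Hochberg over all 28922 genes with a threshold of 0.01. The SE is the log2 fold change divided by the square root of F. Drugs were compared with DMSO-treated cells. Interactions are the drug response in KO cells minus that in WT cells. CPM are TMM-normalised, and library totals ran from 3455043 to 20379777 counts, so genes with few counts, such as ASNS, are the least precise. The fit was tested on simulated data.

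Named were all 10 members, their isoenzymes, 5 stress regulators, PARP1, the 5 genes most like the members' mean profile, and up to 3 called genes in each direction with a mean of at least 50 counts of the further pathway genes. The members and gene lists were chosen with earlier results of these data known. Alternatives were RLE normalisation, other filters, untreated cells as comparator, DESeq2 1.42.0, offsets for length and GC, the library name prefix, a replicate block, fits to only the libraries compared, and leaving out libraries. No column lay outside the 40 libraries. A gene of the named set is not reported here.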

Additional observations from a re-analysis of the deposited data

Results flagged for a closer look

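In 3 of the 100 combinations of a member and a group of 4 libraries, 1 library lay far from the others by Dixon's ratio, where chance gives about 1 in 20. PSPH was at 10.2 CPM in replicate 3 of the DMSO-treated WT cells, with the others at 17.2 to 18.4 CPM. ALDH1L2 was at 5.88 CPM in replicate 2 of PARP1-KO cells with OL9-119, with the others at 9.05 to 9.45 CPM. ASNS was at 0.822 CPM in replicate 3 of PARP1-KO cells with the combination, with the others at 4.01 to 4.49 CPM.

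The drug responses of some members differed between the genotypes by the interaction term in edgeR. With OL9-119 the response in PARP1-KO cells minus that in WT was -0.93 for PSAT1 (adjusted p = 5.64e-05) and -0.96 for MTHFD2 (adjusted p = 5.32e-05) on the log2 scale. With the combination it was -0.77 for PSAT1 (adjusted p = 0.000844), -1.04 for MTHFD2 (adjusted p = 2.72e-06) and -2.11 for ALDH1L2 (adjusted p = 0.000844), at different Tpc doses.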

How the results depend on the processing

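Of 32 calls of a member in a comparison, 19 were kept under every alternative run and 13 were lost under at least 1; over the 626 alternative values of these calls, 569 stayed past the threshold, 57 did not, and none changed sign. The values are counts of the 10 members called. Fitting only the libraries compared, which gives fewer libraries for the spread, gave 2 for PARP1-KO against WT with DMSO (4 in the report), 4 with Tpc (2), 0 for Tpc in WT cells (1), 2 for OL9-119 in WT cells (6), 3 for the combination in WT cells (5) and 1 for its interaction (3). An adjusted p of 0.05 gave 4 for PARP1-KO against WT with Tpc, 3 with the combination (1 in the report) and 2 for Tpc in WT cells. DESeq2 gave the same 4, 3 and 2 counts. Offsets for length and GC gave 4 with Tpc, 5 with OL9-119 (2 in the report) and 4 with the combination for PARP1-KO against WT. With OL9-119 that count was 1 under RLE normalisation, without a filter on low counts and with the library name prefix as covariate. The filter filterByExpr gave 2 for PARP1-KO against WT with the combination and 2 for Tpc in WT cells. Untreated cells as comparator gave 3 for OL9-119 in WT cells. With both libraries that stood apart left out, a choice made after seeing the data, Tpc in WT cells gave 0 and OL9-119 in WT cells still 6. The causes of these shifts were not tested beyond what the alternatives change by construction.

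Leaving out 1 library at a time gave 3 to 4 for PARP1-KO against WT in untreated cells, 3 to 5 with DMSO, 2 to 2 with Tpc, 1 to 2 with OL9-119 and 1 to 2 with the combination. It gave 0 to 2 for Tpc, 4 to 6 for OL9-119 and 4 to 5 for the combination in WT cells. Replicate numbers did not pair the libraries (mean correlation of same-numbered deviations 0.03, lowest -0.27). A replicate block gave 2 for Tpc in WT cells, 5 for PARP1-KO against WT with DMSO and 6 for OL9-119 in WT cells. Within the 3 library name prefixes, 27 of 27 called differences with values had the same sign in each prefix that could be compared. In all 27 the libraries of the compared groups did not overlap. The sign within a prefix was thus fixed in advance, and this count is no check of the prefix. Over all genes, OL9-119 in WT cells gave 334 calls in the report, 719 by DESeq2 and 46 with only the libraries compared. ASNS is limited by its depth.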
